A study of Homo sapiens with 28 samples.

Results

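The cytokine interleukin 11 (IL11) and the gp130 signalling machinery around it were followed in SK-N-AS neuroblastoma cells after induction of the oncogenic transcription factor MYCN. The 8 genes were chosen as IL11 with ligands, receptor chains, a transducer and a feedback inhibitor of the gp130 pathway: IL6, LIF, IL6ST, LIFR, OSMR, STAT3 and SOCS3. By the platform's gene symbols they had 27 of the 54675 probe sets on the array. IL11 was selected on its difference in slope over time between the 2 lines, one of the widest of any gene, so its own values are a description without a test. The other 7 genes were taken for their place in the pathway, but with earlier results of these data known, so their tests and counts are not free of selection.

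SK-N-AS cells are a long-established culture from a human neuroblastoma, a childhood tumour of the sympathetic lineage. Their derivative with a doxycycline-inducible MYCN gene (SK-N-AS-tet-MYCN, here the MYCN line) was measured on 3 arrays at each of 7 times, labelled 0, 4, 8, 24, 48, 96 and 192 with no unit given in the labels. A mock line, also labelled SK-N-AS and named after the tet repressor vector pcDNA6TR, was measured on 1 array at each of those times. Per the labels, cells of both lines were harvested at times after doxycycline was added, so both received the drug. Each genotype is represented by 1 line, and whether a line is a single clone is not given in the sources used here. Separate cultures are not named for the replicates in the labels, so the p-values rest on array-to-array spread that may be technical only, and the number of arrays limits their precision. The labels also do not say that arrays of the same replicate number follow one culture. Courses and folds of a replicate below therefore join arrays by number only.

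MYCN signal was 69.4 to 103.4 at time 0 in the MYCN line, 1549 to 3098 at time 4 and 3065 to 3273 at time 192. It stayed at 1.6 to 3.0 in the mock line. All 7 markers of the mesenchymal type of neuroblastoma were above the filter signal of 12.8 on all 28 arrays, among them the filament protein VIM at 4559 to 6908. Of 8 noradrenergic markers 3 were above it throughout, whereas the catecholamine enzymes DBH and TH never reached it. Whether the lines come from the same stock is not in the labels, and they differed from the start: the noradrenergic markers summed to 504 to 767 in the MYCN line against 2526 to 3209 in the mock, and 3 leukocyte markers, mainly PTPRC, to 7.1 to 41.3 against 213 to 275. The part of these differences in the results below was not tested. A spiked hybridisation control split the arrays into a batch with MYCN-line replicates 1 and 2 (1558 to 1945) and a batch with replicate 3 and the mock line (2231 to 2548).

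Cytokines of this family signal through a shared receptor chain, gp130, encoded by IL6ST. IL-6 and IL-11 first bind their own non-signalling receptors, IL6R and IL11RA, and then assemble gp130 pairs, whereas LIF and oncostatin M join gp130 to a second signalling chain, LIFR or OSMR. The receptor chains activate JAK kinases, which phosphorylate the transcription factor STAT3. STAT3 then switches on target genes including SOCS3, an inhibitor that binds gp130 and shuts the signal down. In neural tissue LIF and related cytokines are known for effects on the survival and transmitter choice of sympathetic neurons, the lineage from which neuroblastoma arises.

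In outline, LIFR and STAT3 fell after MYCN induction. At time 192 LIFR was 2.72-fold lower than at time 0 and STAT3 1.81-fold lower. Both also differed in trend from the mock line, though neither did once the single mock array of time 192 was left out (limma adjusted p = 0.0716 and 0.0606). OSMR passed the test against time 0 at time 192 only, where it was 1.40-fold lower, a call lost in 8 of 20 alternatives. IL11 was higher on all 3 arrays of time 192 than on any array of time 0, from a dim start and to very different levels. That is a description, since IL11 was chosen on its slope in these data. IL6, LIF, IL6ST and SOCS3 did not pass the test against time 0 at any time in the fit without pairing of the replicates.

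The upstream sequences shown are those of IL11, the gene chosen on its slope in these data, and of LIFR, the member with the clearest decline. Each is the 250 bases before an annotated transcript start in RefSeq's GRCh38.p14 annotation, printed 5′ to 3′ on the gene's strand, the minus strand for both. IL11 has the window chr19:55370464-55370713, and LIFR has 3 windows, chr5:38556647-38556896, chr5:38557468-38557717 and chr5:38595406-38595655. Capitals mark matches to the AP-1 motif TGANTCA or the STAT motif TTCNNNGAA.
IL11: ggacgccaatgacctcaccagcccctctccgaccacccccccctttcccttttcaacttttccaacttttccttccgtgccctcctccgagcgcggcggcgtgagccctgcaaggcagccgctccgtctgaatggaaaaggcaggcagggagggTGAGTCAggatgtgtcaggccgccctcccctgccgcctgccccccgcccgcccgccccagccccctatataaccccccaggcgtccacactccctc
LIFR, first window: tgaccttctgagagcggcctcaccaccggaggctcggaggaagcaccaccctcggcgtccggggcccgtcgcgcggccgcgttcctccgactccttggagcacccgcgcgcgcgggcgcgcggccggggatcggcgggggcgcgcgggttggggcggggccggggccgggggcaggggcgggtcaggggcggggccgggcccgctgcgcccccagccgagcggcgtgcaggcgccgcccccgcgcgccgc
LIFR, second window: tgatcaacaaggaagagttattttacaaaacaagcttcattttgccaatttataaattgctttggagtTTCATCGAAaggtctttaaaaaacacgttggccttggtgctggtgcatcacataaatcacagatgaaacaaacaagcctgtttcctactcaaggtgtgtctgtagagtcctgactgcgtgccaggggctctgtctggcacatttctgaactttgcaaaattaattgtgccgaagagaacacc
LIFR, last window: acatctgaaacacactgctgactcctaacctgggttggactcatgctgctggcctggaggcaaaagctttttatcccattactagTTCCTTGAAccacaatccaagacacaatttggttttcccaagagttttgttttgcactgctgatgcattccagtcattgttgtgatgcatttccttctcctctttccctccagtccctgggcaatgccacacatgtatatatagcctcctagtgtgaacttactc

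The IL11 window is 67.2% G and C and holds 1 AP-1 match, TGAGTCA, starting 96 bases before the transcript start. The first LIFR window, 83.6% G and C, holds no match to any motif searched. The second, 40.8% G and C, holds the STAT match TTCATCGAA starting 182 bases before its start. The last, 45.2% G and C, holds the STAT match TTCCTTGAA starting 165 bases before its start. The E-box CACGTG, the motif read by MYC family proteins, was in none of the 10 windows of the 7 members with an entry in the table. It was in 6.34% of all 35116 windows searched. The AP-1 motif was in 1 of the 10 member windows and the STAT motif in 2, against 6.57% of all windows for either motif. All 3 motifs read the same on both strands and do not overlap each other. A match is a description of letters, and its absence says only that those letters are not in this window.

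**Figure D1:**
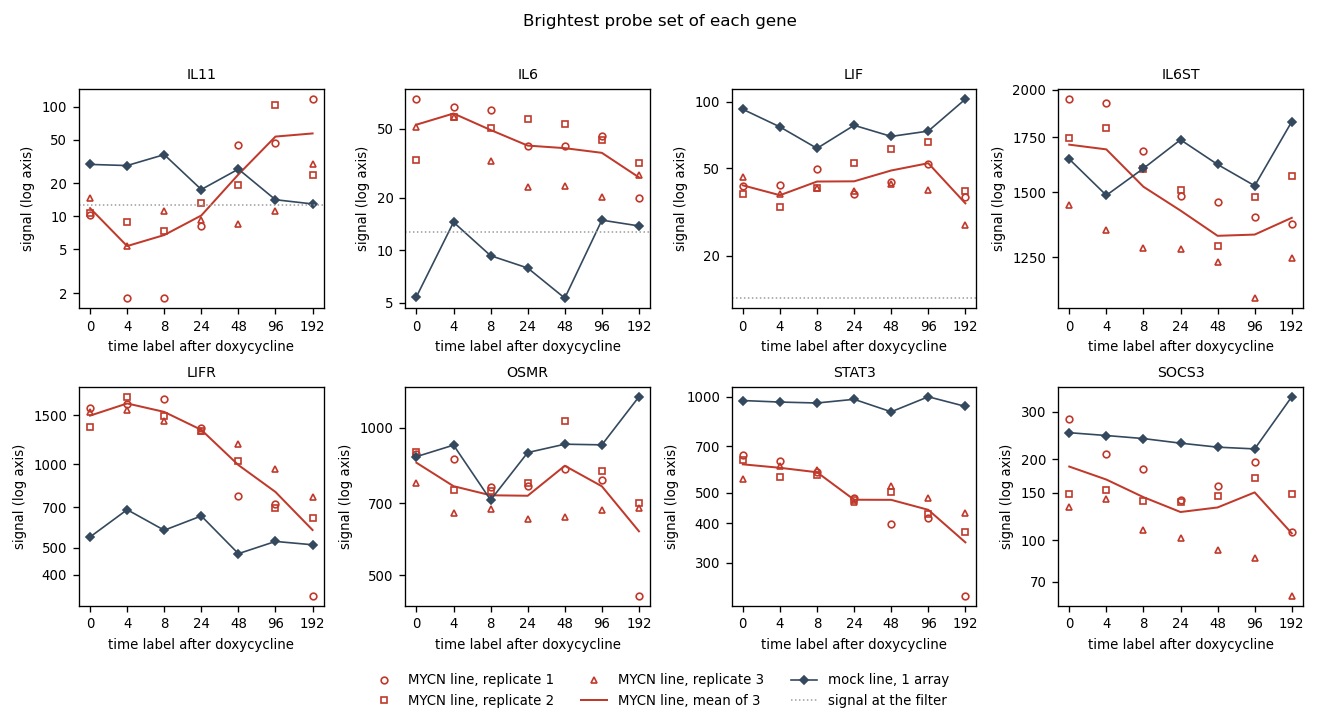
Deposited signal (log axis) of each member's brightest probe set against the time label, with points for the 3 replicates of the MYCN line, a line through their mean and a line for the single mock course, and the filter signal of 12.8 drawn where values come near it. LIFR and STAT3 descend in all 3 MYCN-line courses, while IL11 starts near the filter signal and its courses end between 24.0 and 117.3.

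Among the ligands, IL11 encodes a cytokine of stromal and tumour cells. On its brighter probe set, 206924_at, the signal at time 0 in the MYCN line was 10.2, 10.8 and 14.7 in replicates 1, 2 and 3 (11.9 ± 2.44, SD, n = 3). At time 4 it was 1.8, 8.9 and 5.4, and at time 8 it was 1.8, 7.3 and 11.2. These early values lay at or under the filter signal except for replicate 3 at time 0, and the 3 arrays of time 4 lay below the 3 of time 0.

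IL11 signal was 8.1, 13.3 and 9.2 at time 24 and then 44.4, 19.4 and 8.6 at time 48. It was 46.4, 102.7 and 11.3 at time 96, and 117.3, 24.0 and 30.0 at time 192 (57.1 ± 52.2). Joined by replicate number, the arrays thus parted company: replicate 1 was high from time 48 on, replicate 2 peaked at time 96, and replicate 3 moved above its time 0 value only at time 192. Only at time 192 did all 3 arrays lie above all 3 of time 0. Because IL11 was chosen on its slope from these same values, such orderings of its arrays are a description and no support for a rise. The share of all genes wholly above time 0 is not given here.

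From time 0 to time 192, IL11 signal went up 11.5-fold in replicate 1, 2.22-fold in replicate 2 and 2.04-fold in replicate 3. These folds rest on time 0 signals of 10.2 and 10.8, under the filter signal, and 14.7, just above it, so their size depends on the background. The fitted change was 1.90 on the log2 scale (SE 0.82), a mean that hides a replicate SD of 1.41. It was 1.09 without replicate 1, and 1.17 where 16 was added to every signal before taking logs, which damps dim values.

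In the mock line IL11 went the other way, at 29.8, 29.1, 36.6, 17.6, 27.0, 14.2 and 13.0 over the 7 times. It therefore started brighter there than in the MYCN line and ended dimmer. The log2 slope per time step was 0.88, 0.43 and 0.17 in the 3 MYCN-line replicates against -0.22 in the mock line. The difference in slope of 0.71 (SE 0.22) ranked 4 of 11865 genes from the most positive, which is how IL11 was chosen. It was 0.38 with 16 added to the signal and 0.39 within the batch that holds replicate 3 and the mock line.

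The second IL11 probe set, 206926_s_at, did not show the same course. It was below the filter signal on 23 of 28 arrays and passed 20.3 only on the array of replicate 1 at time 48, at 29.0. Its slopes were 0.26, -0.0020 and -0.08 in the MYCN line against -0.18 in the mock. With the mean of both probe sets, the IL11 change at time 192 was 0.78 instead of 1.90.

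IL6 encodes the family's founding inflammatory cytokine, and its only probe set was brighter in the MYCN line than in the mock line at every time. Signal in the MYCN line was 74.1, 32.9 and 51.5 at time 0, 67.2, 58.5 and 58.1 at time 4, then 64.4, 50.7 and 32.6 at time 8. It was 39.9, 57.1 and 23.1 at time 24, 39.7, 53.1 and 23.3 at time 48, then 45.6, 43.3 and 20.2 at time 96. At time 192 it was 19.9, 31.8 and 27.1, all below the lowest array of time 0. The mock line held 5.4, 14.5, 9.3, 7.9, 5.3, 14.9 and 13.8, where 4 of the 7 arrays were under the filter signal.

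The IL6 difference at time 192 was -0.96 on the log2 scale (SE 0.39, limma adjusted p = 0.0782), with a 95% interval of -1.77 to -0.14. Replicate 2 hardly took part, at 32.9 and 31.8, while replicate 1 was 3.72-fold lower and replicate 3 1.90-fold lower. Blocking on the replicate number gave an adjusted p of 0.0273.

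LIF encodes leukaemia inhibitory factor, and it was flat. Signal in the MYCN line was 41.3, 38.2 and 45.7 at time 0 and 36.9, 39.2 and 27.6 at time 192, with all values between lying from 33.1 to 65.7. The 2 groups overlapped, and the difference of -0.28 (SE 0.21, limma adjusted p = 0.362) had a 95% interval of -0.73 to 0.16. The mock line was brighter throughout, at 92.6, 77.0, 61.5, 78.3, 69.7, 73.7 and 103.0.

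Of the receptors, IL6ST encodes gp130 itself. Its brightest probe set, 212195_at, read 1948, 1749 and 1448 at time 0 in the MYCN line, 1460, 1292 and 1233 at time 48, and 1374, 1571 and 1247 at time 192. Replicate 3 was the lowest at each of the 7 times, so the groups overlapped even where each replicate number was lower than the same number at time 0. The difference at time 192 was -0.29 (SE 0.14, limma adjusted p = 0.153), with a 95% interval of -0.59 to 0.01, and the adjusted p was 0.00429 with the replicate block. Mock values were 1647, 1488, 1604, 1739, 1622, 1528 and 1829.

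IL6ST had 7 probe sets, of which 5 passed the filter. Their differences at time 192 were -0.34, -0.29, -0.49, -0.29 and -0.26, and none passed the limma test (lowest adjusted p = 0.182, over the 24655 probe sets tested). The other 2, 234474_x_at and 234967_at, lay between 0.2 and 13.4. Averaging all 7 turned the difference to 0.03.

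LIFR encodes the signalling receptor chain for LIF, and it showed the clearest decline of the 8 genes. On the brightest probe set, 225575_at, the MYCN line read 1587, 1359 and 1537 at time 0, 1643, 1747 and 1568 at time 4, then 1714, 1485 and 1425 at time 8. It read 1354, 1312 and 1319 at time 24 and 768, 1024 and 1186 at time 48. It read 720, 698 and 964 at time 96 and 336, 642 and 760 at time 192. From time 24 on, the 3 arrays of each time lay below all 3 of time 0, and the replicates fanned out, replicate 1 falling furthest. At time 24 the margin was 1354 against 1359, and the difference of -0.17 did not pass (limma adjusted p = 0.703). At time 192, 19.6% of all genes lay below time 0 in this way, and the share at earlier times is not given here.

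LIFR mean signal went from 1494 ± 120 at time 0 to 579 ± 219 at time 192 (SD, n = 3). The log2 difference was -0.61 at time 48 (SE 0.21, limma adjusted p = 0.0557), -0.92 at time 96 (adjusted p = 0.00329) and -1.45 at time 192 (adjusted p = 5.26e-05, 95% interval -1.88 to -1.01). In single replicates the loss from time 0 to time 192 was 4.72-fold, 2.12-fold and 2.02-fold. The call at time 192 held under all 20 alternatives tried, with differences of -1.68 to -0.999, whereas the call at time 96 was lost with the mean of all probe sets (adjusted p = 0.106) and without replicate 2 (0.104).

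In the mock line LIFR stood lower from the start and varied within a narrow band, at 547, 686, 578, 651, 476, 527 and 513. By time 192 the MYCN-line arrays, at 336 to 760, overlapped the range of the mock line. In bulk RNA, fewer cells that express a gene and less RNA per cell cannot be told apart.

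The decline did not rest on one LIFR probe set. Of 5 probe sets, 4 were above the filter signal on every array, and their differences at time 192 were -1.45 for 225575_at, -1.42 for 225571_at, -1.18 for 205876_at and -1.17 for 227771_at. All 4 passed the limma test over 24655 probe sets, of which 18.6% did. On 205876_at the mock line also went down, from 179.5 to 79.0, and there the difference in trend did not pass (adjusted p = 0.410). The remaining probe set, 229185_at, lay between 1.2 and 20.2.

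**Figure D2:**
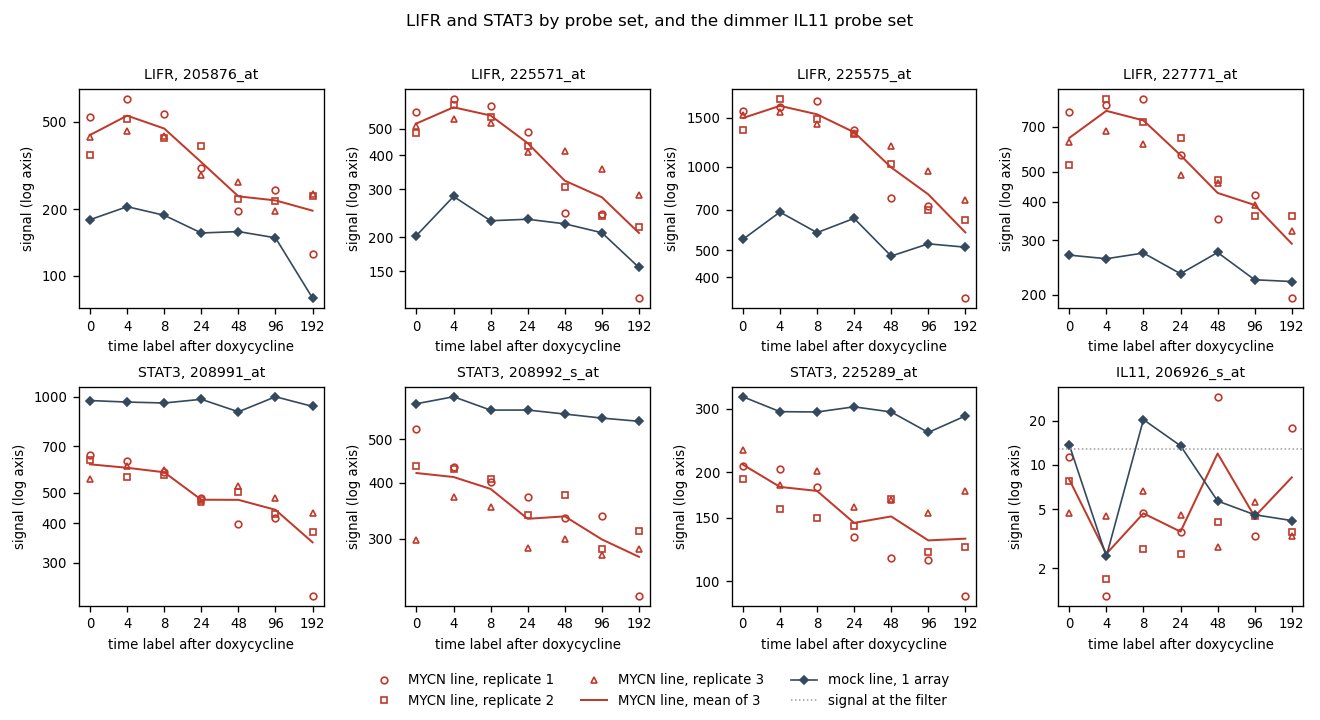
Deposited signal (log axis) against the time label for the 4 bright LIFR probe sets, 3 STAT3 probe sets and the dimmer IL11 probe set, with points for the 3 MYCN-line replicates, a line through their mean and the mock course in each panel. The 4 LIFR probe sets descend together, and IL11 206926_s_at stays mostly under the filter signal of 12.8.

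OSMR encodes the chain that pairs with gp130 to bind oncostatin M. Its brightest probe set, 226621_at, read 882, 890 and 772 at time 0 in the MYCN line and 454, 702 and 687 at time 192. The values at the times between ran from 649 to 1030, with the highest in replicate 2 at time 48. All 3 arrays of time 192 were below those of time 0, replicate 1 by 1.94-fold and replicate 3 by 1.12-fold.

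The OSMR difference at time 192 was -0.49 (SE 0.16, limma adjusted p = 0.0287, 95% interval -0.82 to -0.16). It was -0.29 (adjusted p = 0.199) without the single array of replicate 1 at time 192, and -0.26 (0.412) without replicate 1, and the F-test did not pass (0.249). The probe set 205729_at gave -0.45 (adjusted p = 0.120) and 1554008_at gave 0.03. The mock line read 873, 921, 712, 889, 925, 922 and 1156, its highest value at time 192.

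STAT3 encodes the transcription factor at the end of the receptor pathway. Its brightest probe set, 208991_at, read 658, 631 and 551 at time 0 in the MYCN line, 630, 558 and 606 at time 4, and 581, 567 and 589 at time 8. It read 482, 475 and 467 at time 24, 398, 501 and 524 at time 48, then 415, 428 and 481 at time 96. At time 192 it read 237, 376 and 432. From time 24 on, no array reached the lowest of time 0. At time 192 this held for 19.6% of all genes, and the share at earlier times is not given here. The differences of -0.37 at time 24 and -0.38 at time 48 did not pass (limma adjusted p = 0.166 and 0.110). Replicate 1 again ended lowest.

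STAT3 mean signal was 613 ± 55.8 at time 0 and 348 ± 101 at time 192 (SD, n = 3). The difference was -0.47 at time 96 (SE 0.15, limma adjusted p = 0.0312), a call lost in 7 of 20 alternatives. It was -0.86 at time 192 (SE 0.15, adjusted p = 4.21e-04, 95% interval -1.18 to -0.54), a call kept in all 20, with differences of -1.11 to -0.53. The mock line was higher and level, at 974, 963, 957, 983, 898, 1001 and 934.

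Across the STAT3 probe sets, 208992_s_at gave -0.60 at time 192 (limma adjusted p = 0.0171) and 225289_at gave -0.73 (adjusted p = 0.0147). The dim 243213_at, at 10.0 to 27.3, gave 0.05 (adjusted p = 0.948). On 208992_s_at replicate 3 hardly moved, from 297.8 to 284.4, while replicate 1 went from 526.3 to 223.5.

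SOCS3 encodes the feedback inhibitor that STAT3 induces. Its brightest probe set, 227697_at, read 282, 148 and 133 at time 0 in the MYCN line and 107, 149 and 62.1 at time 192. The courses of replicates 1 and 3 went down 2.64-fold and 2.14-fold, while replicate 2 stayed between 138 and 171 at all 7 times. The difference was -0.83 (SE 0.34, limma adjusted p = 0.0853, 95% interval -1.55 to -0.11), and the adjusted p was 0.00253 with the replicate block. The mock line read 251, 245, 239, 229, 222, 218 and 341.

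The dimmer SOCS3 probe sets differed from this. The probe set 206359_at gave -0.08 at time 192 and 206360_s_at gave -0.21, with adjusted p-values of 0.945 and 0.711. In replicate 2 the first of these went from 12.2 to 40.9, against the other replicates. The last, 214105_at, never passed 12.3.

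Counted over the 7 members tested, none passed the limma test at times 4, 8, 24 or 48, and 0, 0, 1 and 3 had an unadjusted p under 0.05. Of all 11865 genes 0.00843%, 0.767%, 7.18% and 14.7% were called at those times, and 6.56%, 10%, 22.1% and 28.4% had an unadjusted p under 0.05. At time 96, 2 of 7 were lower (LIFR and STAT3), against 13.2% of all genes called lower. At time 192, 3 of 7 were lower (LIFR, STAT3 and OSMR), against 14.1% of all genes. None was called higher at either time. All 7 differences at time 192 were negative, with a median of -0.83 beside -0.03 over all genes tested.

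By arrays that do not overlap, 4 of the 7 lay wholly below time 0 at time 192 (IL6, LIFR, OSMR and STAT3), which 19.6% of all genes did. With replicate numbers as a block, 6 of 7 were lower at time 192, all except LIF, where 19% of all genes were. The F-test over the 6 later times called LIFR (adjusted p = 5.21e-05) and STAT3 (adjusted p = 0.00236), 2 of 7, where 25.4% of all genes were called.

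Whether a course reflects the line or only time in culture with doxycycline is what the mock line addresses. None of the 7 members passed the limma test for a linear trend over the 7 mock arrays, and none had an unadjusted p under 0.05. Over all genes 3.13% passed and 23.2% had an unadjusted p under 0.05. The mock slopes ran from -0.05 per time step for LIFR to 0.12 for IL6.

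The difference in trend between the lines passed for 3 of 7 members, all lower in the MYCN line, where 12.8% of all genes were called lower. LIFR differed by -0.21 per time step (SE 0.06, limma adjusted p = 0.0130), from slopes of -0.37, -0.23 and -0.17 in the MYCN line against -0.05 in the mock. STAT3 differed by -0.13 (SE 0.04, adjusted p = 0.0131). IL6 differed by -0.29 (SE 0.11, adjusted p = 0.0453), a call lost in 15 of 20 alternatives. Its mock slope rests on signals of 5.3 to 14.9, around the filter signal of 12.8. That slope went from 0.12 to 0.04 with 16 added to the signal, so the IL6 call is set against values near background.

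The other 4 did not pass: the difference was -0.14 for SOCS3 (adjusted p = 0.211), -0.10 for OSMR (0.0824), -0.08 for IL6ST (0.0837) and -0.01 for LIF (0.928). With a separate intercept for each time course, the replicate block, IL6ST (adjusted p = 0.00630) and SOCS3 (0.0418) passed as well. LIF had no settled sign, at 0.03 with equal array medians and at 0.06 without the mock array of time 192.

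These tests lean on single mock arrays. Without the mock array of time 192 none of the 7 passed, with adjusted p-values of 0.0716 for LIFR, 0.0606 for STAT3 and 0.235 for IL6. Without that of time 0 only STAT3 passed (0.0429), with LIFR at 0.0961. Within the batch that holds replicate 3 and the mock line, the difference was -0.12 for LIFR (adjusted p = 0.0358), -0.06 for STAT3 (0.135), -0.34 for IL6 (0.0998) and -0.21 for SOCS3 (0.00682). The batch with replicates 1 and 2 holds no mock array. Within it, the change at time 192 was -1.66 for LIFR, -1.11 for STAT3 and -0.65 for OSMR, each passing the limma test, and in replicate 3 alone it was -1.02, -0.35 and -0.17.

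**Figure D3:**
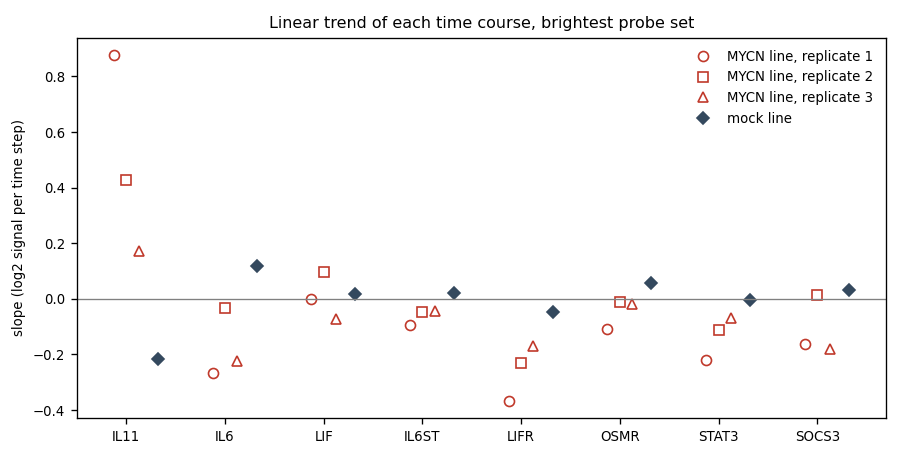
Slope of log2 signal per time step for each of the 3 MYCN-line courses and the mock course, by member, on the brightest probe set. All 3 LIFR slopes, from -0.37 to -0.17, lie below the mock slope of -0.05. The 3 IL11 slopes, from 0.17 to 0.88, lie above the mock slope of -0.22, but IL11 was chosen on this difference.

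Among the other genes of the pathway, none of the 5 further ligands measured (OSM, CNTF, CTF1, IL27 and EBI3) was bright enough to be tested. The list counts below stand beside 25.8% of all genes called at time 192, with 14.1% of all genes called lower. With the replicate block these shares were 35.1% and 19%, and with equal array medians 15.9% were called in either direction. Of the 4 other receptors tested, 1 rose at time 192 and none fell. IL6R, the IL-6 binding chain, rose from 22.2 ± 10.5 to 41.9 ± 2.65 (log2 difference 1.04, SE 0.32, limma adjusted p = 0.0210) while the mock line went from 80.7 to 50.1. Its trend difference from the mock line did not pass (limma adjusted p = 0.0939), nor did its F-test (adjusted p = 0.0972). At time 96 the IL6R difference was 0.05 (limma adjusted p = 0.924). IL11RA, the IL-11 binding chain, read 70.7 ± 21.2 at time 0 and 35.3 ± 5.03 at time 192 (difference -0.97, SE 0.46, adjusted p = 0.136), and IL27RA, a chain of the IL-27 receptor, differed by -0.13 (adjusted p = 0.683). With the replicate block 1 receptor fell and 1 rose.

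Of 9 other JAK kinases, STATs and adaptors, 2 fell and 1 rose at time 192. The receptor-bound kinase TYK2 fell from 283 ± 34.1 to 190 ± 28.2 (difference -0.58, limma adjusted p = 0.00455), and STAT5A, a STAT factor of other cytokine pathways, fell from 38.4 ± 9.97 to 19.0 ± 3.56 (-0.998, adjusted p = 0.00834). PTPN11, the phosphatase and adaptor SHP2, rose slightly from 2121 ± 125 to 2476 ± 47.5 (0.22, adjusted p = 0.00977). The PTPN11 call was lost with equal array medians, where 2 fell and none rose, and with the replicate block 4 fell and 1 rose. The list median at time 192 was -0.37.

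Of 12 other negative regulators, 4 rose and none fell, where 25.8% of all genes were called in either direction, and the list median was -0.12. PTPN2, a phosphatase of JAK kinases and STATs, rose from 243 ± 3.82 to 373 ± 37.1 (0.61, limma adjusted p = 0.00144), while the mock line went from 197 to 173. SOCS4 rose by 0.38 (adjusted p = 0.0173) and SOCS7 by 0.57 (adjusted p = 0.0203), both of the SOCS family. On the mock array of time 192 they were also higher than at time 0, by 0.17 and 0.55. The trend difference passed for neither (limma adjusted p = 0.420 for SOCS4 and 0.750 for SOCS7). With equal array medians only 1 of the 12 was called, higher, and with the replicate block 2 fell and 4 rose.

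Of 31 other genes listed as STAT3 targets, 4 fell and 6 rose, with a median of 0.07. SPHK1, a lipid kinase, rose from 38.6 ± 5.56 to 294 ± 120 (2.87, SE 0.35, limma adjusted p = 9.11e-06), while the mock line went from 65.4 to 30.0. JUNB, an AP-1 subunit, rose from 67.1 ± 15.9 to 131 ± 23.8 (0.97, adjusted p = 0.00225), and MUC1, a membrane mucin, fell from 62.2 ± 5.12 to 24.1 ± 5.22 (-1.39, adjusted p = 1.81e-04). The mock line went up for JUNB as well, from 162 to 217, and the trend difference did not pass (adjusted p = 0.199). With the replicate block 4 of the list fell and 8 rose.

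Of 28 genes listed as AP-1, NF-kB, TGF-beta or IL-1 inducers of IL11, IL6 and LIF, 4 rose and 2 fell, with a median of 0.05. Beside JUNB, the AP-1 subunit JUN rose from 125 ± 23.2 to 339 ± 125 (1.39, limma adjusted p = 2.64e-04), with 309 and 330 in the mock line. The AP-1 subunit JUND fell from 979 ± 164 to 574 ± 96.0 (-0.77, adjusted p = 4.43e-04), with 1206 and 1466 in the mock line. With the replicate block 3 of the list fell and 7 rose. Across all 5 tested lists, the share called at time 192 stands beside 25.8% of all genes.

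**Figure D4:**
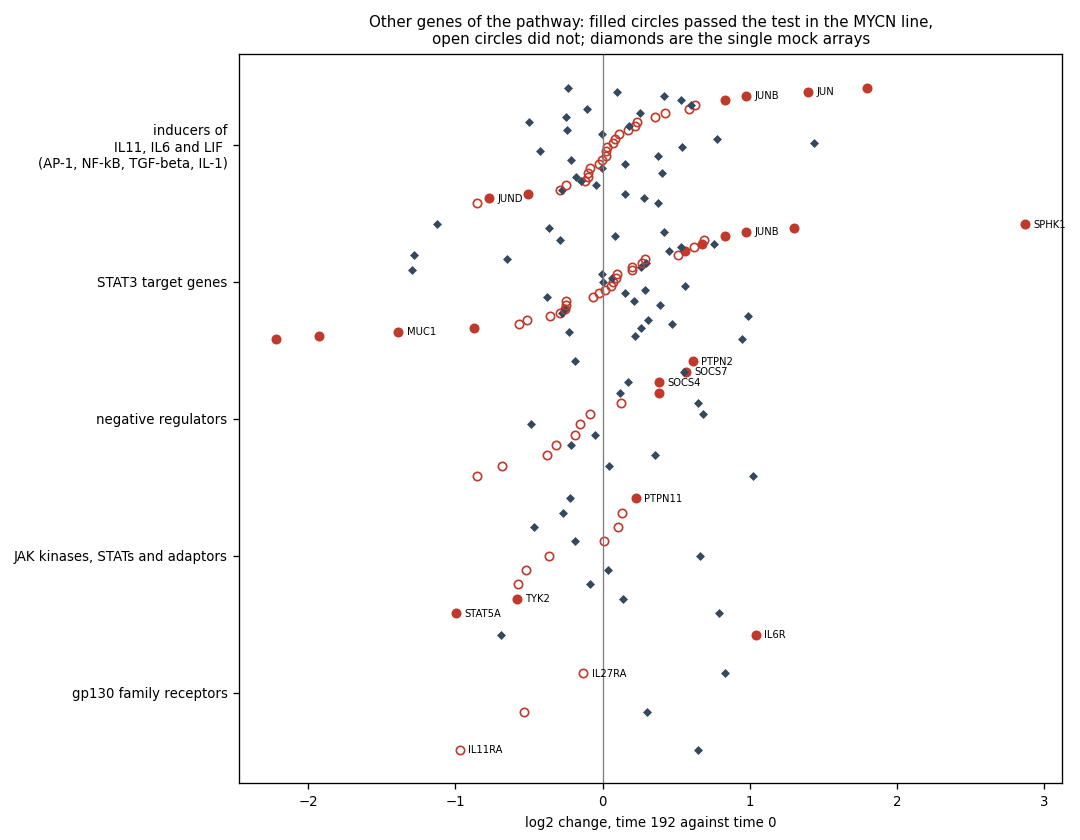
Log2 change from time 0 to time 192 for the tested genes of the 5 pathway lists other than the members, 1 row per gene, with circles for the MYCN line (filled where the limma adjusted p was under 0.05) and diamonds for the single mock arrays. Only the genes named by the rule are labelled, such as SPHK1 at 2.87 and MUC1 at -1.39, and unlabelled circles lie further out than some of them.

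The genes whose course was most like that of IL11, by Pearson correlation across the 14 line by time means of log2 signal, were DLGAP4 (0.933), PRKCI (0.914), HSCB (0.899), SPATS2 (0.895) and MET (0.889). These points share lines, times and arrays, so the correlations are a description. DLGAP4 was also first by Spearman correlation (0.969), whereas HSCB ranked 28 by it. Over the 7 means of the MYCN line alone, SPATS2 ranked 114 and MET, a receptor tyrosine kinase, 164, so the order depends on the measure. By Pearson correlation over the 14 means, the closest gene to the others was NR2F1-AS1 for IL6 (0.953), TTC28 for LIF (0.960), CRAT for IL6ST (0.948), MAP2 for LIFR (0.970), FAM149B1 for OSMR (0.921), COPZ2 for STAT3 (0.993) and DCHS1 for SOCS3 (0.976). These matches also depend on the measure: MAP2, which encodes a neuronal microtubule protein, ranked 302 for LIFR by Spearman correlation, and CRAT ranked 457 for IL6ST over the MYCN line alone.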

How the data were processed

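RNA of 28 samples was measured on 1-colour Affymetrix arrays, 21 of the MYCN line and 7 of the mock line. The authors deposited a linear intensity for every probe set on every array. MAS5 and GCOS are named in the submitters' processing notes, with versions not given in the sources used here. With the top and bottom 2% trimmed, mean signal was 100.0 on every array and the median 12.9 to 20.2, which sets the precision of dim genes. The median was 12.9 to 14.4 on MYCN-line replicates 1 and 2, 15.1 to 17.2 on replicate 3 and 16.9 to 20.2 on the mock line. No depth applies to arrays.

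The deposited intensity was taken to log2, with 91 values at or under 0 set to 0.1. Of the probe sets, 41091 named 1 gene, 1801 several and 11783 none in the platform annotation, which can be old, and only the first kind was used. For each of 19775 genes the probe set of highest mean log2 signal was used, and the 11865 genes at or above the 40th percentile (log2 3.68, signal 12.8) were tested. All 8 members passed, IL11 narrowly (mean log2 3.95).

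Fits used limma 3.58.1 in R 4.3.3 (lmFit, eBayes with trend), with Benjamini-Hochberg adjustment over all genes tested and a threshold of 0.05. Times were compared with time 0 over 21 arrays (14 residual degrees of freedom). Trends used the time step from 0 to 6, over 7 mock arrays or all 28. The scripts were tested on simulated data. Alternatives covered scaling, pseudocount, filter, probe sets, blocks, batches and left-out arrays.

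Replicate numbers come from the labels, which do not say that they mark a shared culture or day. Deviations of same-numbered samples from their group means correlated with those at time 0 by over 0.1 for all 3 numbers at times 4, 8 and 192 (at 192, 0.149, 0.129 and 0.226), but not at times 24, 48 and 96. Blocked values are therefore given beside the results at time 192 whose call or count they change.

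Named genes were all members, the 3 genes of each pathway list with the smallest F-test p, the 5 genes most correlated with IL11 and the closest gene to each other member. The members and lists were chosen with earlier results of these data known. Some genes of the lists are not reported here. Upstream windows came from RefSeq (GRCh38.p14), where 7 of 8 members matched.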

Additional observations from a re-analysis of the deposited data

Results flagged for a closer look

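For 3 members the course over time differed between the lines by a test of the difference itself, the interaction of line and time step in limma. The slope per time step in the MYCN line minus that in the mock line was -0.29 for IL6, -0.21 for LIFR and -0.13 for STAT3 on the log2 scale. Without the single mock array of time 192, or with probe sets averaged, 0 of the 3 passed, and the IL6 call was lost in 15 of 20 alternatives. On the brightest probe sets the mock slope was -0.05 for LIFR and -0.01 for STAT3, but on the LIFR probe set 205876_at it was -0.17. For IL6 the mock slope was 0.12, on values of 5.3 to 14.9.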

How the results depend on the processing

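Genes called at time 192 numbered 3056 of 11865, 1886 with equal array medians and 1543 or 1327 without replicate 1 or 2. Genes called at time 96 numbered 2779, 1567 with equal medians and 787 without replicate 2. The F-test called 3011, 1629 with equal medians, 857 without replicate 1 and 687 without replicate 2, and the trend difference 2850 and, without the mock array of time 192, 1295. The LIFR and STAT3 calls at time 192 kept their direction and side of the threshold under all 20 alternatives. With the replicate block, members called of 7 numbered 1 at time 24, 2 at time 48 and 6 at time 192. The F-test called 4 and the trend difference 5. Of all genes 14.9%, 23.9%, 35.1%, 40.5% and 29.2% were called, in that order. The batch as a block gave 1, 2 and 6 at those times and 5 by the F-test. There 13.5%, 22.7%, 33.7% and 37.9% of all genes were called. At time 48, where 0 were called, 2 were called after quantile normalization, 1 with log2(signal + 16) and 1 with the filter at the 60th percentile. Of all genes 14.6%, 15.3% and 19.1% were called under these 3 settings. At time 96 the count was 1 with equal medians and 1 with probe sets averaged, where 13.2% and 16.4% of all genes were called. For the trend difference it was 1 and 0, where 17.7% and 16.1% of all genes were called. Leaving out single replicates or arrays gave 0 to 3 members at time 48, 0 to 3 at time 96 and 2 to 4 at time 192. Of all genes 2.03% to 18.9%, 6.63% to 23.5% and 11.2% to 25% were called at those times. The F-test called 1 to 3 members, where it called 5.79% to 24.9% of all genes. The trend difference passed for 0 to 3 members, where it passed for 10.9% to 27.7% of all genes. IL6ST changed sign with the mean of its probe sets, 2 of them near background, to 0.030 at time 192 and 0.047 per step in trend. The LIF trend difference of -0.01 changed sign to 0.025 with equal medians, 0.017 after quantile normalization and 5.79e-04 on log2(time + 1), and left-out replicates or arrays gave -0.070 to 0.057. Of the lists at time 192, the replicate block gave 2 receptors for 1, 5 JAK, STAT and adaptor genes for 3 and 10 inducers for 6. It also gave 6 negative regulators for 4 and 12 STAT3 targets for 10, where 35.1% of all genes were called. Equal medians gave 1 negative regulator for 4, where 15.9% of all genes were called. The cause of these shifts was not tested. Signal near background limits IL11, IL6 in the mock line and the ligands.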
